A study of Mus musculus with 12 samples.

Results

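The expression of 10 genes of arginine and polyamine metabolism was measured by RNA-seq in BMDMs, the macrophages that mouse bone marrow cells form in culture. These were *Arg1*, *Arg2*, *Nos2*, *Slc7a1*, *Slc7a2*, *Ass1*, *Odc1*, *Sat1*, *Srm* and *Oat*. They were found by symbol among the 48526 genes of the count table, and all 10 were present. The cells came from 3 female C57Bl/6J mice, were grown in 10 ng/mL mCSF and were used on day 7. Each mouse gave untreated cells and cells that received 100 ng/mL recombinant Wnt3a, 100 pg/mL IL-4 or the combination for 16 hr, which gave 12 samples in 4 groups of 3. The study asked whether Wnt3a, a ligand of the Wnt pathway, augments the response of macrophages to a low amount of IL-4.

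The values of each mouse deposited for Wnt3a and for Wnt3a+IL-4 share reads. Within a mouse, the Wnt3a count was never below the Wnt3a+IL-4 count and never above 2 times that count in any of the 48526 genes, whereas 6681 to 8625 genes lay outside these bounds for columns of different mice. Each pair of columns was therefore solved for the 2 libraries that it holds. The first, called the difference, is what is left of the Wnt3a count once the Wnt3a+IL-4 count is taken away. The second, called the remainder, is the Wnt3a+IL-4 count less the difference. Cells behind both had received Wnt3a, and the labels do not say which of them had also received IL-4. Under the first assignment the difference is Wnt3a alone and the remainder is Wnt3a+IL-4, and under the other assignment it is the reverse. By qPCR in BMDMs, the study reported *Arg1* as unaltered by Wnt3a alone and higher with Wnt3a and IL-4 than with IL-4 alone. That readout was not used to choose an assignment. Total counts of the 12 libraries ranged from 13342492 to 17453377.

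Macrophages take up arginine through cationic amino acid transporters and use it in competing ways. Arginases split it into urea and ornithine, and ornithine feeds the synthesis of polyamines through ornithine decarboxylase or of proline through ornithine aminotransferase. Inducible nitric oxide synthase instead turns arginine into nitric oxide and citrulline, and citrulline can be rebuilt into arginine through argininosuccinate synthase. Arginase 1 is a textbook marker of macrophages activated by IL-4, and inducible nitric oxide synthase is one of macrophages activated by bacterial products and interferon-γ.

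The cells carried the label's identity. The 8 macrophage markers on the list used here were detected in every group and summed to between 43979 and 68614 counts per 1000000 counts (CPM) in each library. *Lyz2* alone held 34001 to 57327 CPM, while *Itgam*, *Mertk* and *Fcgr1* held 85.8 to 286 CPM. By the rule given below, 4 of the 8 were called higher in the difference and 2 in the remainder than in untreated cells (11.8% and 13.6% of all tested genes). Against IL-4, 5 and 4 were called higher (10% and 10.6%). The remainder was lower than the difference for 2 (2.38%), and IL-4 lower than untreated cells for 1 (1.09%). The neutrophil and granulocyte precursor list summed to between 32.0 and 75.2 CPM. Of its 6 tested markers 4 were lower in the remainder than in untreated cells, where 11.7% of all tested genes were called lower. Against IL-4, 5 were lower in the remainder and 3 in the difference, where 9.67% and 10.3% of genes were. The list had a sum of 48.9 to 61.2 CPM in untreated libraries, 64.7 to 75.2 in IL4 libraries, 35.7 to 56.5 in difference libraries and 32.0 to 36.3 CPM in remainder libraries. Stromal markers summed to between 5.74 and 30.1 CPM and endothelial markers to between 14.8 and 27.0 CPM. Of 3 tested stromal markers 1 was called higher in the difference than in untreated cells (11.8% of all tested genes). Of 2 tested endothelial markers 1 was called higher in the difference and 1 in the remainder than in untreated cells (11.8% and 13.6%). In the remainder 1 was also higher than in the difference (2.87%) and 1 than after IL-4 (10.6%). Dendritic cell markers summed to at most 2.52 CPM, and the 1 that was tested was called higher in the remainder than in untreated cells (13.6%). B and T cell markers and mast cell and erythroid markers each summed to less than 1 CPM. The part of these cells in the results below was not tested. In RNA from a whole culture, a change in the share of expressing cells and a change in RNA per cell cannot be told apart.

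*Arg1* was among the genes that the study followed by qPCR in BMDMs, and its primers are shown to place that readout on the transcript counted here. Both lie in the coding sequence of the 8-exon *Arg1* transcript of 1477 bases, the forward primer in exon 1 at chr10:24927342-24927363 and the reverse primer in exon 3 at chr10:24920738-24920759 (mm10, gene on the minus strand). The product is 185 bases, and 0 other annotated genes hold an exact match to either primer.
*Arg1* forward primer: ctccaagccaaagtccttagag
*Arg1* reverse primer: aggagctgtcattagggacatc

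The stretches of 250 bases before annotated starts were searched on both strands for 6 kinds of motif. The RefSeq promoter table (GRCm38.p6) held 6 windows of 5 members, *Ass1*, *Slc7a1* with 2 starts, *Oat*, *Odc1* and *Sat1*, so *Arg1*, *Arg2*, *Nos2*, *Slc7a2* and *Srm* are only named. The letters searched were TTC and GAA with 3 or 4 bases between them for STAT, CACGTG for the E-box, TTGCNNAA for C/EBP, GGG and TTTCC with 2 bases between them for NF-κB, CTTTGAT for TCF/LEF and TGATGNAA for ATF4. Matches were found before *Ass1* and before 1 start of *Slc7a1*, and 0 before *Oat*, *Odc1* and *Sat1*. The 30 bases around each match are given, with the match in capitals.
*Ass1*, E-box, chr2:31470222-31470251, plus strand: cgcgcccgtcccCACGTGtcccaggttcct
*Slc7a1*, STAT with a spacing of 3, chr5:148392942-148392971, minus strand: agggccactcTTCAAAGAAgccctttgaag
*Slc7a1*, TCF/LEF on the opposite strand, chr5:148392845-148392874, minus strand: tgttcccttcgATCAAAGagggagtggggc
These matches began 36, 146 and 48 bases before the start, and all 3 stretches overlap exons that GENCODE annotates for the same gene. Of all 32851 promoter windows, 6.02% held the E-box, 7.02% the STAT letters with a spacing of 3 and 3.21% the TCF/LEF letters. The other letters were held by 5.85% (STAT with a spacing of 4), 9.56% (C/EBP), 1.41% (NF-κB) and 3.45% (ATF4) of windows. The matches are descriptions of sequence only.

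All 10 members passed the filter of at least 10 counts in at least 3 libraries, as did 12421 genes in all, but *Arg1* and *Nos2* passed only through the groups in which they were high. Levels are given as CPM after TMM scaling, which corrects for library size and composition. Fold changes are log2 values from edgeR's quasi-likelihood fit to the 12 libraries, each with its standard error (SE), and adjusted p is Benjamini-Hochberg adjusted over all tested genes. A gene was called when this was under 0.05. The 3 samples of a group came from 3 mice.

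**Figure D1:**
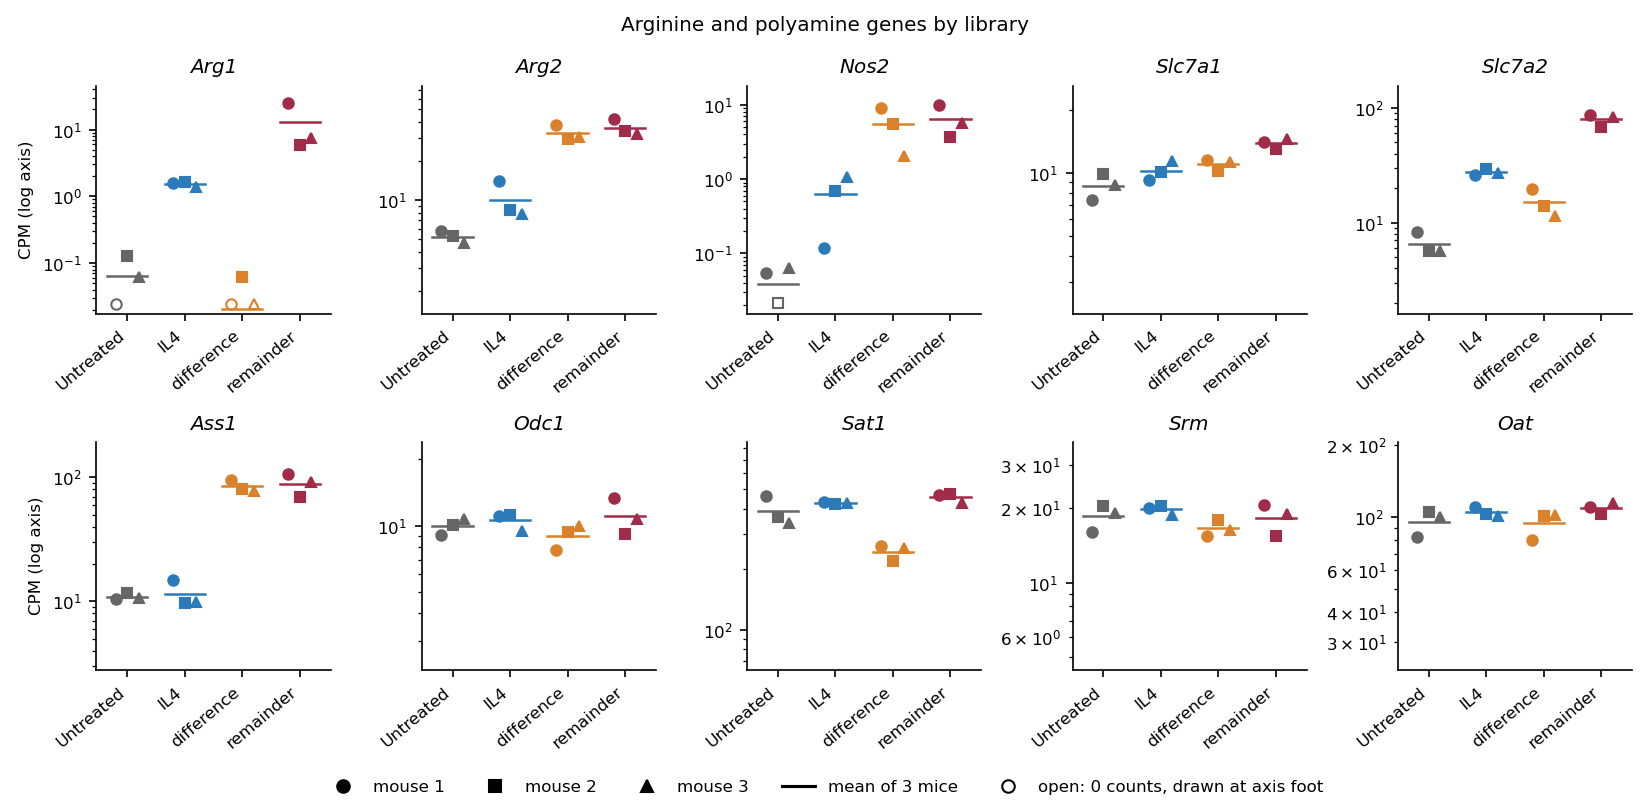
CPM of the 10 members (log axis, a scale of its own in each panel) in untreated, IL4, difference and remainder libraries, with a symbol for each mouse and a line at the mean of 3 mice. Open symbols are libraries with 0 counts. *Arg1* was near 0 in untreated and difference libraries and highest in the remainder, *Arg2*, *Nos2* and *Ass1* were high in both Wnt3a-treated groups, and *Odc1*, *Srm* and *Oat* lay at similar levels in all 4 groups.

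*Arg1*, which encodes the cytosolic arginase of liver and IL-4-activated macrophages (chr10:24915221-24927484), was almost undetected in untreated cells and in the difference. Its counts in mouse 1, 2 and 3 were 0, 2 and 1 in untreated cells and 26, 26 and 19 after IL-4. They were 0, 1 and 0 in the difference and 402, 97 and 114 in the remainder. The groups fell into a low pair, untreated and difference, and a higher pair, IL4 and remainder, with no overlap between the pairs. On the CPM scale the means were 0.0638 ± 0.0643 in untreated cells, 1.53 ± 0.147 after IL-4, 0.0204 ± 0.0353 in the difference and 12.8 ± 10.6 in the remainder (SD, n = 3).

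Because 3 counts or fewer were summed over untreated or difference libraries, folds of *Arg1* against them are given as ratios of summed counts scaled to depth, with exact 95% intervals that cover counting error only. IL-4 gave 25.7 times the untreated level (8.43 to 127), and the remainder 215 times (73.2 to 1046). The remainder was 613 times the difference (110 to 24256). These intervals span more than an order of magnitude, so the ratios are imprecise. Each of these comparisons was called (edgeR, adjusted p = 0.0201, 5.89e-06 and 4.60e-05). *Arg1* entered the test only through its higher groups, so the calls are not separate support for the direction.

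The remainder exceeded IL-4 alone for *Arg1*, a comparison in which both groups had counts. CPM in mouse 1, 2 and 3 were 1.56, 1.66 and 1.37 after IL-4 and 25.0, 5.96 and 7.49 in the remainder. All 3 remainder libraries were above all 3 IL4 libraries, by 16.0, 3.59 and 5.46 times within mouse 1, 2 and 3. The fitted log2 fold change was 3.06 (SE 0.48, edgeR, adjusted p = 0.000385). Mouse 1 was the highest remainder library, and without its remainder the log2 fold change was 2.14 (adjusted p = 0.000289). Without all 4 libraries of mouse 1 it was 2.13 (adjusted p = 0.000572). The difference lay below IL-4 (edgeR, adjusted p = 0.00268). By summed counts scaled to depth, IL-4 gave 73.2 times the difference (12.7 to 2930, counting error only). *Arg1* entered the test only through its higher groups, so the call against the difference is not separate support for the direction. The *Arg1* change between difference and untreated was not detectable at this depth (edgeR, adjusted p = 0.734).

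The call of *Arg1* for IL-4 against untreated cells depended on the libraries in the fit. The edgeR adjusted p was 0.0503 without mouse 2 and 0.242 without mouse 3, against 0.0045 without mouse 1. It was 0.104 and 0.0919 without the untreated library of mouse 1 or 3, and 0.0608, 0.0698 and 0.0528 without the IL4 library of mouse 1, 2 or 3. IL4 counts were above untreated counts in each mouse.

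*Arg2* encodes the mitochondrial arginase (chr12:79130777-79156301) and was present in all libraries. Its CPM in mouse 1, 2 and 3 were 5.80, 5.27 and 4.70 in untreated cells and 14.0, 8.44 and 7.79 after IL-4. They were 37.7, 29.6 and 30.8 in the difference and 42.0, 33.9 and 32.1 in the remainder. Untreated, IL4 and the Wnt3a-treated groups followed each other without overlap, whereas difference and remainder overlapped. Against untreated cells *Arg2* rose by a log2 fold change of 2.63 (SE 0.20) in the difference and 2.77 (SE 0.20) in the remainder (edgeR, adjusted p = 5.07e-07 and 2.56e-07). The remainder and the difference differed by 0.14 on the log2 scale, with a 95% interval of -0.25 to 0.52.

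With IL-4 alone *Arg2* rose by 0.94 on the log2 scale (SE 0.21, edgeR, adjusted p = 0.0235). This call was lost without mouse 2 (0.055) or mouse 3 (0.209), without the untreated library of mouse 2 (0.0634) or 3 (0.117), without the IL4 library of mouse 1 (0.105), and with only the 6 libraries compared (0.0549). Difference and remainder were higher than IL-4 alone by 1.69 and 1.83 (edgeR, adjusted p = 1.60e-05 and 1.00e-05). *Vti1b*, a gene on the opposite strand that overlaps *Arg2*, had a mean between 68.4 and 71.4 CPM in every group, and 28.1% of the exon bases of *Arg2* overlap genes of the opposite strand. The sources do not state whether counting used strand, so how reads of the overlapping bases were counted is not known.

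Per kilobase of exon, *Arg2* was above *Arg1* in all 4 groups. In the remainder, where *Arg1* was highest, the mean was 5.75 ± 4.74 CPM per kb for *Arg1* and 25.2 ± 3.69 CPM per kb for *Arg2* (SD, n = 3). The highest *Arg1* library of that group, at 11.2 CPM per kb, lay below its lowest *Arg2* library, at 22.5 CPM per kb. In IL-4-treated cells the means were 0.687 and 7.05 CPM per kb.

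**Figure D2:**
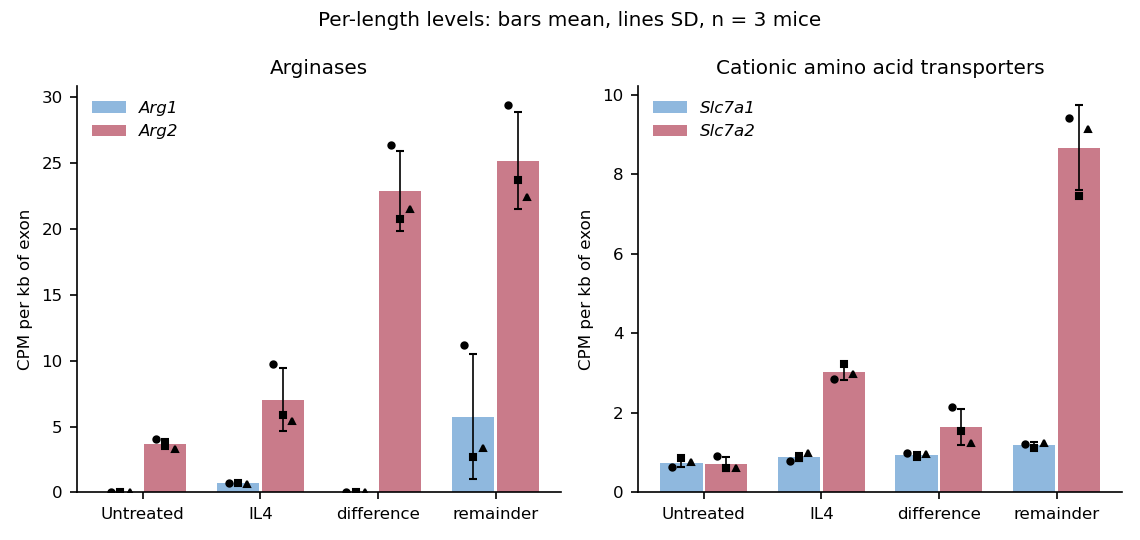
CPM per kilobase of exon (linear axis) for *Arg1* and *Arg2* (left) and *Slc7a1* and *Slc7a2* (right) in the 4 groups, as mean with SD and a point for each of 3 mice. *Arg2* exceeded *Arg1* in every group, and *Slc7a2* reached 8.67 CPM per kb in the remainder while *Slc7a1* stayed at or below 1.25.

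*Nos2* encodes inducible nitric oxide synthase (chr11:78920787-78960254) and was also almost undetected in untreated cells. Its counts in mouse 1, 2 and 3 were 1, 0 and 1 in untreated cells and 2, 11 and 15 after IL-4. They were 157, 90 and 28 in the difference and 161, 60 and 88 in the remainder. Both Wnt3a-treated groups lay above the other two without overlap and overlapped each other. Mouse 3 was the lowest of the difference and mouse 2 of the remainder. The means were 0.0388 ± 0.0339 CPM in untreated cells, 0.635 ± 0.485 after IL-4, 5.51 ± 3.48 in the difference and 6.49 ± 3.21 in the remainder (SD, n = 3).

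Summed *Nos2* counts, scaled to depth, were 145 times the untreated level in the difference (exact 95% interval 39.7 to 1201) and 163 times in the remainder (44.6 to 1349). The exact intervals of these ratios cover counting error only, not the spread between mice. The difference and the remainder were both called higher (edgeR, adjusted p = 0.000108 and 5.76e-05). *Nos2* entered the test only through these higher groups. Their calls against untreated cells and against IL-4 are therefore not separate support for the direction. Against IL-4 alone the log2 fold changes were 3.17 (SE 0.62) and 3.39 (SE 0.61), with adjusted p of 0.00171 and 0.00111. Without mouse 1 they were 2.10 and 2.40, and without mouse 3 they were 4.15 and 4.08. Without the IL4 library of mouse 3 they were 3.78 and 4.0. IL-4 alone gave 15.2 times the untreated count (3.83 to 132, counting error only), from IL4 counts of 2, 11 and 15 in mouse 1, 2 and 3. The *Nos2* change with IL-4 was not called (edgeR, adjusted p = 0.195). DESeq2 called it (adjusted p = 0.0482), as did edgeR when all genes with at least 1 count were tested (7.65e-06). The remainder and the difference differed by 0.22 on the log2 scale, with an interval of -0.78 to 1.22.

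*Ass1* encodes argininosuccinate synthase, which rebuilds arginine from citrulline (chr2:31470207-31520672), and was high in both Wnt3a-treated groups. Its CPM in mouse 1, 2 and 3 were 10.4, 11.6 and 10.7 in untreated cells and 15.0, 9.78 and 9.81 after IL-4. They were 96.2, 80.0 and 77.6 in the difference and 107, 68.9 and 91.9 in the remainder. The first 2 groups overlapped each other, the last 2 overlapped each other, and the pairs were far apart. *Ass1* rose by 2.96 (SE 0.18) in the difference and 3.03 (SE 0.18) in the remainder against untreated cells (edgeR, adjusted p = 7.24e-08 and 3.80e-08). Against IL-4 alone it was higher by 2.87 and 2.95 (adjusted p = 7.07e-08 and 7.76e-08).

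The *Ass1* change with IL-4 alone was 0.09 on the log2 scale, with a 95% interval of -0.32 to 0.50, and it was above untreated cells in 1 of 3 mice. The remainder and the difference differed by 0.08, with an interval of -0.27 to 0.42. The gene model *Gm5424* shares 38.6% of the 50-base stretches of *Ass1*, so reads from those stretches can match both genes. The paper does not state how such reads were counted. *Gm5424* had at most 3 counts in untreated and IL4 libraries, 7 in each difference library and between 5 and 15 in the remainder.

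*Slc7a2* encodes CAT2, the inducible cationic amino acid transporter (chr8:40862396-40922308), and was called in all 6 pairwise comparisons. Its CPM in mouse 1, 2 and 3 were 8.28, 5.66 and 5.64 in untreated cells and 26.0, 29.5 and 27.2 after IL-4. They were 19.6, 14.0 and 11.3 in the difference and 86.0, 68.1 and 83.5 in the remainder. The order was untreated, difference, IL4 and remainder, and no neighbours overlapped. *Slc7a2* rose by 2.07 (SE 0.19) with IL-4, 1.2 (SE 0.20) in the difference and 3.59 (SE 0.20) in the remainder against untreated cells (edgeR, adjusted p = 2.75e-05, 0.000516 and 1.81e-08).

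The remainder of *Slc7a2* was above the difference by 2.39 (SE 0.18) and above IL-4 alone by 1.52 (SE 0.17), with edgeR adjusted p of 3.26e-06 and 2.22e-05. Within mouse 1, 2 and 3 it was 4.39, 4.85 and 7.36 times the difference. The difference was below IL-4 alone by a log2 fold change of -0.87 (SE 0.18, adjusted p = 0.00282), a call that was lost without mouse 3 (-0.71, adjusted p = 0.0975). Genes of the opposite strand overlap 7.0% of its exon bases, and the partner *Gm26584* had at most 1 count in any library.

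*Slc7a1* encodes CAT1, the cationic amino acid transporter found in most cells (chr5:148327410-148399904), and its changes were small. Its CPM in mouse 1, 2 and 3 were 7.42, 9.84 and 8.72 in untreated cells and 9.17, 10.1 and 11.3 after IL-4. They were 11.4, 10.2 and 11.2 in the difference and 14.0, 13 and 14.4 in the remainder. The remainder was above the other groups in all libraries. It rose by 0.67 (SE 0.13) against untreated cells (edgeR, adjusted p = 0.00144), which was not called without mouse 3 (0.66, adjusted p = 0.0557).

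Against IL-4 alone the *Slc7a1* remainder was higher by 0.44 (SE 0.13, edgeR, adjusted p = 0.0259), and this call was lost when any single mouse was left out (0.148, 0.0507 and 0.155 without mouse 1, 2 and 3). It was also lost without the IL4 library of mouse 1 or 2 (0.103 and 0.0758) or the remainder library of mouse 1 or 3 (0.0587 and 0.0888). The difference against untreated cells was 0.34 (SE 0.13, adjusted p = 0.0760) and was called without the untreated library of mouse 2 (0.0432). Per kilobase, *Slc7a1* and *Slc7a2* had overlapping levels in untreated cells, 0.751 ± 0.105 and 0.715 ± 0.166 CPM per kb. In the remainder they were 1.2 ± 0.0642 and 8.67 ± 1.06 CPM per kb (SD, n = 3).

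*Sat1* encodes spermidine/spermine N1-acetyltransferase, which marks polyamines for breakdown and export (chrX:155213132-155216449), and was the only member called lower than untreated cells in any comparison. Its CPM in mouse 1, 2 and 3 were 464, 365 and 340 in untreated cells and 429, 422 and 428 after IL-4. They were 260, 220 and 253 in the difference and 466, 475 and 425 in the remainder. All difference libraries were below all others, and the remaining 3 groups overlapped. *Sat1* fell by 0.67 on the log2 scale in the difference against untreated cells (SE 0.11, edgeR, adjusted p = 0.000378) and by 0.80 against IL-4 alone (adjusted p = 7.16e-05). The remainder was above the difference by 0.90 (SE 0.11, adjusted p = 0.000179), in 3 of 3 mice.

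The *Sat1* remainder against untreated cells was 0.22 (SE 0.11, edgeR, adjusted p = 0.142). It was called higher without mouse 1 (0.35, adjusted p = 0.0203) or without the untreated library of mouse 1 (0.37, adjusted p = 0.00688), which was the highest untreated library. The IL4 change was 0.13, with a 95% interval of -0.10 to 0.36. Per kilobase *Sat1* was the most abundant of the 10 members in all 4 groups, between a mean of 88.1 and one of 164 CPM per kb.

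*Odc1*, *Srm* and *Oat* were called in 0 of the 6 pairwise comparisons. *Odc1* encodes ornithine decarboxylase, the first step from ornithine to polyamines (chr12:17544794-17551505), and its 12 libraries ranged from 7.73 to 13.3 CPM. *Srm* encodes spermidine synthase (chr4:148591503-148594993) and ranged from 15.5 to 20.6 CPM. *Oat* encodes ornithine aminotransferase, the branch to proline and glutamate (chr7:132557478-132576398), and ranged from 80.1 to 114 CPM. Groups of these genes overlapped in every pair except for *Oat*, where all remainder libraries were above all difference libraries, and *Srm*, where all IL4 libraries were above all difference libraries.

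Against untreated cells the remainder differed by 0.15 on the log2 scale for *Odc1* (95% interval -0.17 to 0.48) and by -0.01 for *Srm* (-0.28 to 0.26). The remainder differed from the difference by 0.30 for *Odc1* (-0.03 to 0.63), 0.14 for *Srm* (-0.13 to 0.42) and 0.21 for *Oat* (-0.01 to 0.44). Other genes, among them *Gm7993* and *Gm17709*, share 24.3% of the 50-base stretches of *Odc1*.

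**Figure D3:**
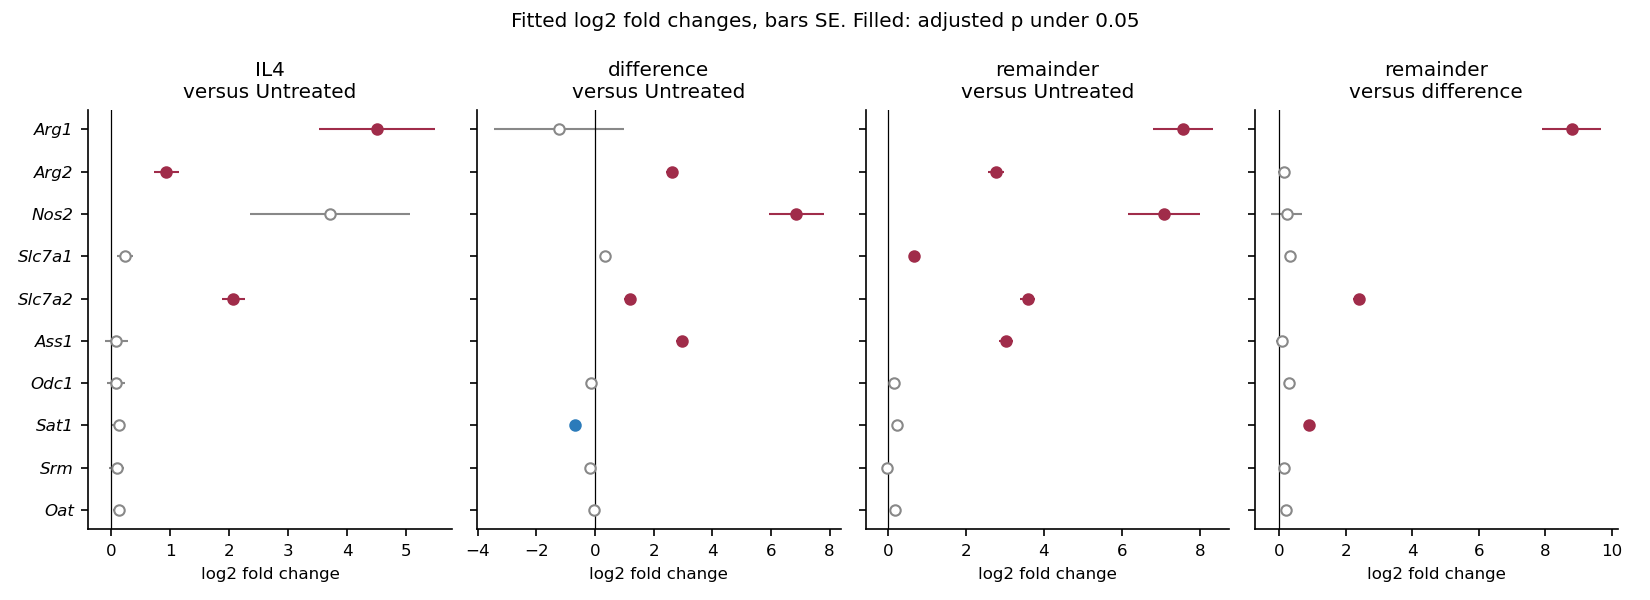
Log2 fold change of each member (horizontal axis, a scale of its own in each panel, with SE as bars) for IL4, difference and remainder against untreated cells and for remainder against difference, filled where the adjusted p was under 0.05. The fitted *Arg1* and *Nos2* values rest on groups with 0 to 2 counts in a library. *Ass1* and *Arg2* moved in both Wnt3a-treated groups, *Slc7a2* in all 4 comparisons, and *Odc1*, *Srm* and *Oat* lay near 0.

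Counted over the members, IL-4 alone raised 3 of 10, *Arg1*, *Arg2* and *Slc7a2*, where 2.31% of all tested genes were called higher. It lowered 0 of 10, with 1 more past an unadjusted p of 0.05 (*Nos2*, upward), where 1.09% of genes were called lower. Without mouse 2, without mouse 3, without the untreated library of mouse 3 or without the IL4 library of mouse 1, the 3 were reduced to 1, *Slc7a2*. In the difference 4 rose (*Arg2*, *Nos2*, *Slc7a2* and *Ass1*), where 11.8% of genes were called higher, and *Sat1* fell, where 11.4% were called lower. In the remainder 6 rose, where 13.6% of genes were called higher, and 0 fell, where 11.7% were called lower. These 3 comparisons share the untreated libraries. The median log2 fold change of the members was 0.18, 0.16 and 1.72, against medians of 0.00, -0.01 and -0.02 over all tested genes. The members counted here and below include *Arg1* and *Nos2*, which passed the filter only through the groups in which they were high.

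Between the Wnt3a-treated groups, the remainder was higher than the difference for 3 of 10 members (*Arg1*, *Slc7a2* and *Sat1*), where 2.87% of genes were called higher, and lower for 0, where 2.38% were called lower. The members' median was 0.26 against 0.01 over all genes. Against IL-4 alone, 3 members were higher in the difference (*Arg2*, *Nos2* and *Ass1*), where 10% of genes were, and 3 were lower (*Arg1*, *Slc7a2* and *Sat1*), where 10.3% were. The remainder was higher than IL-4 alone for 6 members, where 10.6% of genes were, and lower for 0, where 9.67% were. *Arg2*, *Nos2* and *Ass1* were thus called in both Wnt3a-treated groups against both groups without Wnt3a, while a difference between the Wnt3a-treated groups was not called for any of these 3 genes.

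Whether the IL-4 effect differed with and without Wnt3a was tested as an interaction under each assignment. Under the first assignment it was called for 0 of 10 members by edgeR, where 0.0403% of all genes were called positive and 0.0644% negative. At an unadjusted p of 0.05, 3 members passed. *Arg2* had an interaction of -0.80 (SE 0.28, adjusted p = 0.266), *Nos2* one of -3.48 (SE 1.47, adjusted p = 0.349) and *Sat1* one of 0.77 (SE 0.15, adjusted p = 0.0816). The *Nos2* value is imprecise, with a 95% interval of -6.64 to -0.33, since it rests on untreated counts of 1, 0 and 1. DESeq2 called *Sat1* (adjusted p = 0.00132). For *Slc7a2* the interaction was 0.32, with a 95% interval of -0.24 to 0.89, so on the log2 scale the step from difference to remainder did not differ detectably from the step between untreated and IL-4-treated cells. The *Arg1* interaction could not be estimated with any precision, since its interval ran from -1.18 to 9.76.

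Under the other assignment 4 of 10 members were called, all negative, where 4.42% of genes were called negative, and 0 were called positive, where 2.91% were. In this contrast the step from difference to remainder enters with its sign reversed. Each of the 4 had positive fitted changes for IL-4 against untreated cells and for remainder against difference, so their negative signs follow from that reversal. *Slc7a2* had an interaction of -4.46 (SE 0.27, edgeR, adjusted p = 1.24e-07), *Sat1* one of -1.03 (SE 0.15, adjusted p = 0.000501) and *Arg2* one of -1.08 (SE 0.28, adjusted p = 0.0286). *Arg1* was called negative too (adjusted p = 2.01e-05), with a fitted value that has no meaning as a size because untreated and difference libraries held 0 to 2 counts. The *Arg2* call was lost without mouse 3 (adjusted p = 0.179), without the untreated library of mouse 3 (0.0903), the IL4 library of mouse 1 (0.0608), the difference library of mouse 2 or 3 (0.0734 and 0.0701), or the remainder library of mouse 1 (0.0684). *Nos2* and *Slc7a1* were not called (adjusted p = 0.140 and 0.0832).

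A wider list of 52 genes of the same pathways held 39 tested genes. With IL-4 alone 4 rose and 0 fell, where 2.31% of all tested genes were called higher and 1.09% lower. *Gatm*, the arginine:glycine amidinotransferase that starts creatine synthesis, had a mean of 22.3 ± 2.54 CPM in untreated cells, 71.8 ± 10.2 after IL-4, 24.2 ± 1.49 in the difference and 120 ± 9.17 in the remainder (SD, n = 3). *Azin2*, an antizyme inhibitor that spares ornithine decarboxylase, had 2.26 ± 0.440, 6.46 ± 0.728, 2.30 ± 0.358 and 11 ± 2.38 CPM. Both were high in the same groups as *Arg1*. The log2 fold changes with IL-4 were 1.68 (SE 0.12) and 1.51 (SE 0.21), and those of the remainder against the difference were 2.31 (SE 0.12) and 2.25 (SE 0.20), with edgeR adjusted p between 9.07e-08 and 0.000646.

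*Gatm* and *Azin2* were the 2 of 39 genes called higher in the remainder than in the difference, where 2.87% of all tested genes were. Of the 39, 0 were called lower, where 2.38% of all tested genes were. The other genes that rose with IL-4 were *Qdpr*, which regenerates the cofactor of nitric oxide synthases, by 0.38 (SE 0.10, edgeR, adjusted p = 0.0482), and *Eif5a*, whose protein carries the polyamine-derived residue hypusine, by 0.35 (SE 0.09, adjusted p = 0.0475). With the mouse as a block these adjusted p were 0.0812 and 0.0736, and neither gene was called.

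In the difference 4 of the 39 genes rose and 4 fell against untreated cells, near the shares of 11.8% and 11.4% over all tested genes. *Gch1*, the first enzyme of tetrahydrobiopterin synthesis, rose by 0.62 (SE 0.10, edgeR, adjusted p = 0.000604), *Aldh18a1*, which makes the precursor of proline and ornithine, by 0.61 (SE 0.15, adjusted p = 0.00886), and *Atp13a2*, a lysosomal polyamine exporter, by 0.42 (SE 0.10, adjusted p = 0.00683). *Ddah2*, which breaks down methylated arginine, fell by 1.16 (SE 0.19), *Sms*, spermine synthase, by 1.13 (SE 0.18) and *Prodh*, proline dehydrogenase, by 0.69 (SE 0.16), with adjusted p of 0.000487, 0.000388 and 0.00738.

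In the remainder 8 of the 39 genes rose and 4 fell against untreated cells, where 13.6% of all tested genes were called higher and 11.7% lower. *Gatm* rose by 2.43 (SE 0.12), *Azin2* by 2.28 (SE 0.20) and *Aldh18a1* by 0.79 (SE 0.15), with edgeR adjusted p of 6.55e-09, 1.68e-06 and 0.00124. *Sms* fell by 1.05 (SE 0.18), *Ddah2* by 0.52 (SE 0.18) and *Paox*, which oxidizes acetylated polyamines, by 0.44 (SE 0.12), with adjusted p of 0.000574, 0.0497 and 0.0168. With the mouse as a block *Ddah2* (0.0587) and *Slc7a6*, a transporter that was among the 8 (0.0800), were not called.

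Against IL-4 alone 6 of the 39 genes were higher and 6 lower in the difference, where 10% and 10.3% of all tested genes were. *Aldh18a1* was higher by 0.59 (SE 0.15), *Atp13a2* by 0.52 (SE 0.10) and *Gch1* by 0.51 (SE 0.10), with edgeR adjusted p of 0.0113, 0.00146 and 0.00235. The lowest log2 fold changes were those of *Gatm* (-1.57, SE 0.12), *Azin2* (-1.48, SE 0.21) and *Ddah2* (-1.16, SE 0.19), with adjusted p of 2.97e-07, 0.000125 and 0.000446. *Slc3a2*, also called higher, was not called with the mouse as a block (0.0607). In the remainder 7 genes were higher than after IL-4 alone and 1 lower, where 10.6% and 9.67% of all tested genes were. *Aldh18a1* and *Azin2* were each higher by 0.77 (SE 0.15 and 0.18) and *Gatm* by 0.74 (SE 0.11), with edgeR adjusted p of 0.00189, 0.00807 and 0.000208. *Sms* was lower, with a log2 fold change of -0.91 (SE 0.18, adjusted p = 0.00232).

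Across the wider list the median log2 fold change was 0.00 with IL-4, 0.02 in the difference and 0.06 in the remainder, close to the medians of 0.00, -0.01 and -0.02 over all tested genes. Under the first assignment 0 of the 39 genes had a called interaction, and under the other assignment 4 did, all negative, *Gatm*, *Azin2*, *Qdpr* and *Eif5a*, where 4.42% of all tested genes were called negative and 2.91% positive. These 4 had higher means after IL-4 than in untreated cells and in the remainder than in the difference. Their negative signs thus follow from the reversed step, as for the members. Of the 13 listed genes that were not tested, 12 had at most 7 counts in any library, among them the urea cycle genes *Otc*, *Cps1* and *Nags* and the nitric oxide synthases *Nos1* and *Nos3*, and *Slc66a1* was not matched by symbol.

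**Figure D4:**
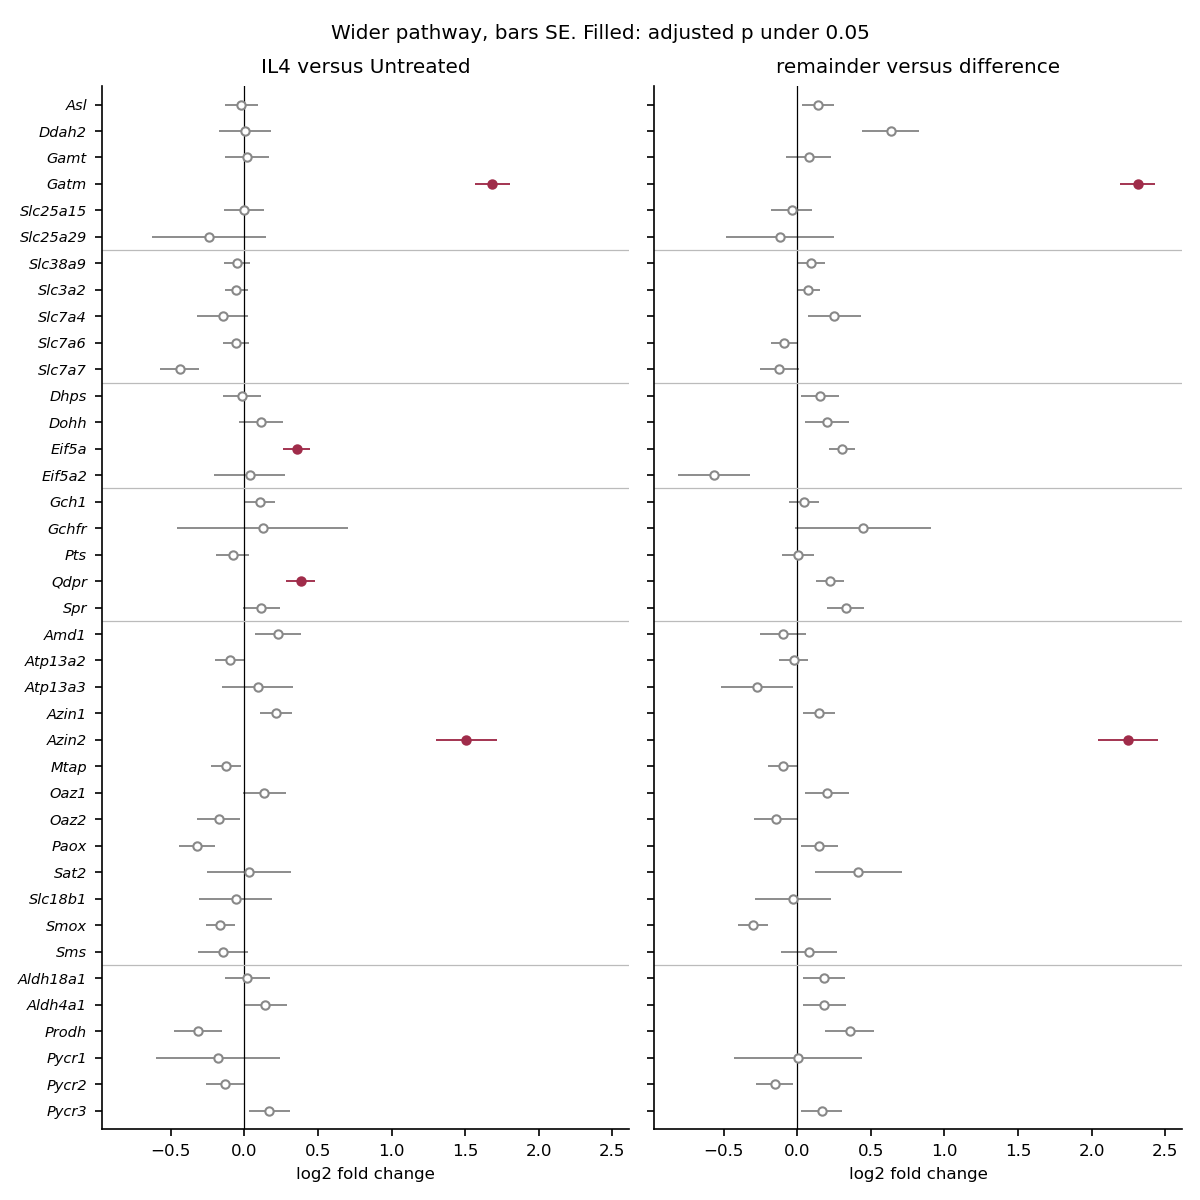
Log2 fold change (horizontal axis, with SE as bars) of the 39 tested genes of the wider list for IL4 against untreated cells (left) and remainder against difference (right), grouped by pathway between grey lines and filled where the adjusted p was under 0.05. *Gatm* and *Azin2* stood out to the right in both panels, at 1.68 and 1.51 on the left and 2.31 and 2.25 on the right.

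The genes most like *Arg1* over the 12 libraries, by Pearson's r of log2 CPM among genes with a group mean of at least 8 CPM, were *Dusp4* (0.98), *Azin2* (0.97), *Rnf19b* (0.97), *Ap2m1* (0.97) and *Anpep* (0.97). *Dusp4*, a MAP kinase phosphatase, had a mean of 22.3 CPM in untreated cells, 70.3 after IL-4, 21.7 in the difference and 129 in the remainder. *Anpep*, aminopeptidase N, had 1179, 1512, 1154 and 1830 CPM. With Spearman's rho in place of Pearson's r, 1 of the 5 genes, *Ap2m1*, was listed again, so the list depends on the measure. The first gene on the list for *Slc7a2* was *St8sia1* (0.96), for *Ass1* *Procr* (0.99), for *Nos2* *Ptk2* (0.99) and for *Arg2* *Tmem173* (0.99). These are descriptions over 12 libraries that share 4 conditions.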

How the data were processed

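BMDMs of 3 mice were sequenced under 4 conditions. The authors deposited unnormalized read counts for each gene, made by trimming (Trimmomatic 0.36), alignment of single reads to mm10 (STAR 2.6.0) and counting (HTSeq 0.11.1), per the submitters' notes. The methods name UCSC genes, while the identifiers are Ensembl's, and 48058 of 48526 had a symbol. Positions, exon lengths and shared stretches came from GENCODE vM21 on the same build. Strand of counting was not given in the sources used here.

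Difference and remainder were solved for in each mouse. The test, in edgeR 4.0.16 (R 4.3.3), took genes that reached 10 counts in 3 or more of 12 libraries (TMM, quasi-likelihood, no term for the mouse, Benjamini-Hochberg adjusted p under 0.05). The SE is the log2 fold change divided by the root of F, and 95% intervals use the t quantile of the fit. Log2 CPM used a prior count of 2. The code was tested on simulated data. Members, lists and tests were chosen with earlier results of these data known. All members are named, and of the wider list the 3 highest and 3 lowest called log2 fold changes of a comparison that had the same direction in 3 mice. *Eif5a*, *Slc3a2* and *Slc7a6* were named after their values were seen.

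The same mouse gave 1 library to each group, so the libraries are paired by the labels. Deviations from group means of same-mouse libraries correlated between -0.42 and 0.45 in 18 pairs, of which 6 were over 0.1. Alternatives were DESeq2 1.42.0, other scalings, filters and thresholds, only the groups compared, the mouse as replicate block, the deposited columns in place of the solved libraries, and leaving out each mouse or library.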

Additional observations from a re-analysis of the deposited data

Results flagged for a closer look

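Under the assignment in which the difference is Wnt3a+IL-4 and the remainder Wnt3a alone, 4 members had a called interaction (edgeR's quasi-likelihood test). Such an interaction is an IL-4 effect that differs with and without Wnt3a. Under this assignment the step from difference to remainder enters with its sign reversed. Each of the 4 had positive fitted changes for IL-4 against untreated cells and for remainder against difference. Their negative signs therefore follow from that reversal, and they hold only if this assignment does. The log2 interaction was -4.46 for *Slc7a2* (adjusted p = 1.24e-07), -1.03 for *Sat1* (adjusted p = 0.000501) and -1.08 for *Arg2* (adjusted p = 0.0286). *Arg1* had a fitted -13.30 (adjusted p = 2.01e-05), which has no meaning as a size, since untreated and difference libraries held 0 to 2 counts. For *Slc7a1*, IL-4 against untreated cells was positive in all 3 mice and the difference against the remainder negative in all 3, with an interaction of -0.57 that was not called (adjusted p = 0.0832). Under the first assignment 0 members were called by edgeR. The labels do not say which assignment holds, and the study's qPCR of *Arg1*, given above, was not used to choose one. *Arg1* counts in mouse 1, 2 and 3 were 26, 26 and 19 after IL-4. They were 0, 1 and 0 in the difference and 402, 97 and 114 in the remainder. Groups of 3 were not tested for outlying samples.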

How the results depend on the processing

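Of 1978 values of members recomputed under 25 other settings, 1914 kept their side of the threshold, 47 lost a call, 12 gained one and 5 that were called in either fit reversed. Of the 1914, 47 values without a call changed sign, of which 1 exceeded 1 in size in both fits, the first-assignment interaction of *Arg1* with the deposited columns (-3.98 against 4.29). DESeq2's size factors, total counts, a filter of 1 CPM and the mouse as replicate block changed 0 of 80 values each, so the block, for example, left *Slc7a2* with IL-4 called. The count of members called with IL-4 alone, 3, was 1 at an adjusted p of 0.01, and ranged from 1 to 3 when a mouse or library was left out. It was 1 without mouse 2 or 3, without the untreated library of mouse 3 or without the IL4 library of mouse 1, and *Slc7a2* was the call that remained. Under the first assignment the interaction was called for 3 members with all genes of at least 1 count, 1 with DESeq2 and 1 with the deposited columns, against 0. With the deposited columns, which mix both Wnt3a-treated libraries by construction, 0 members were called between the Wnt3a-treated columns and 1 in the interaction of the other assignment. The 5 reversed values came from those columns: 6.02 for *Arg1* and untreated cells, 1.45 for *Arg1* and 0.40 for *Slc7a2* in the Wnt3a column against IL4, -0.29 for *Sat1* in the Wnt3a+IL-4 column against IL4, and -1.69 for the *Slc7a2* interaction of the first assignment. Over all genes, that interaction was called for 13 with edgeR, 165 with DESeq2 and 575 with all genes of at least 1 count. Total-count scaling moved the median of all genes to -0.10 in the difference and -0.13 in the remainder. Depth limits *Arg1* and *Nos2*, whose low groups held 0 to 2 counts in a library.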
